A study of Homo sapiens with 6 samples.

Results

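Genes of chromosome 2, as a body, gave lower counts in A549 cells that overexpressed the long non-coding RNA LOC401312 than in cells that carried the empty vector. The genes described here are the 788 of 2530 chromosome 2 features that held a mean of at least 250 raw counts over 6 RNA-seq libraries, with CPS1 and INHBB left out. The whole table holds 38170 features, and 11145 features of other chromosomes reached the same minimum. The chromosome was selected on these same libraries because its genes ran low, so the size of the shift and the number of genes called lower are descriptions here and are given without a test of the set. A549 is a human lung adenocarcinoma line. The study compared 3 libraries of A549 cells with a piggyBac-delivered LOC401312 overexpression construct with 3 libraries of A549 cells with the empty piggyBac vector, grown in serum-supplemented DMEM, and total RNA was sequenced. The sample titles name 3 LOC401312 libraries, while the genotype fields of replicates 2 and 3 read LOC401313 and LOC401314. Groups follow the titles. Whether a group's libraries are separate cultures is not stated, and a p-value then measures library-to-library spread that may be only technical. In bulk RNA, fewer cells of a type and less RNA per cell cannot be told apart.

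The long human chromosome 2 is divided by its centromere into a short p arm and a longer q arm. It carries genes of nearly every cellular process, from ribosomal proteins, chaperonins and DNA repair factors to the HOXD developmental cluster and the UGT1A glucuronosyltransferase locus. RNA levels of neighbouring genes are usually set gene by gene, by promoters and enhancers. A change shared by the genes of a whole chromosome is therefore best described in 2 steps, as the common shift and as the departure of single genes from it.

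Promoter windows of 3 genes are printed because the genes behind them differed in how they related to the shift. They come from RefSeq on GRCh38.p14 and run from 250 bases before to 50 bases after the RefSeq start. SULT1C2 stood farthest above the shift. SGPP2 also stood above it. HSPE1 and its neighbour HSPD1 start back to back on opposite strands, and HSPE1 stood well below the shift while HSPD1 sat on it. In the SULT1C2 window (chr2:108288645-108288944, plus strand) capitals mark the match to the NRF2 core motif TGACNNNGC, which lies on the reverse strand. In the SGPP2 window (chr2:222423738-222424037, plus strand) capitals mark 3 matches to the kappa B motif GGNNTTTCC and 1 to the AP-1 motif TGANTCA. In the HSPE1 window (chr2:197500129-197500428, plus strand) capitals mark the 204 bases that also lie in the HSPD1 window.
SULT1C2: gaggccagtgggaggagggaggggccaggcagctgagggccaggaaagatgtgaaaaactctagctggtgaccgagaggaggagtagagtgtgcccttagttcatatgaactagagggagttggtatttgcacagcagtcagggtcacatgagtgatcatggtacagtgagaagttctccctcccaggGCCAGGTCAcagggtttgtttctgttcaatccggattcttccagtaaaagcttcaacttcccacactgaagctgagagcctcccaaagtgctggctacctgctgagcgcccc
SGPP2: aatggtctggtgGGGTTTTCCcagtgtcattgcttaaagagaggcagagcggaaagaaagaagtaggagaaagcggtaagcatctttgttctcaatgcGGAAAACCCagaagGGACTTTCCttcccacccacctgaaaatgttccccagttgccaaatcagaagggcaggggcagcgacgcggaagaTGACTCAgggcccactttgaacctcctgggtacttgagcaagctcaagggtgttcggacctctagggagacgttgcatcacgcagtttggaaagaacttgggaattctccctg
HSPE1: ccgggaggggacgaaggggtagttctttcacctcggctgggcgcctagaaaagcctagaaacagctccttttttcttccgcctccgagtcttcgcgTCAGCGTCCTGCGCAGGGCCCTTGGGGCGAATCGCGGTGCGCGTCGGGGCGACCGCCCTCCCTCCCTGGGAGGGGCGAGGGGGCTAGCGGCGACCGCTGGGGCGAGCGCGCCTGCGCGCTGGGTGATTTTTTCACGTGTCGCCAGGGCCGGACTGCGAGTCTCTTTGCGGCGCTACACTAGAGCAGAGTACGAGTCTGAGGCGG

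RefSeq windows were matched to 659 of the 788 genes. These motifs were searched on both strands because factors that bind them are encoded on chromosome 2: NFE2L2 encodes NRF2, REL a subunit of NF-kappa B, and FOSL2 a member of AP-1. TGACNNNGC was in 13.4% of the 659 windows and in 13.6% of all 27305 RefSeq windows. TGANTCA was in 2.6% of the chromosome 2 windows against 7.8% of all, and GGNNTTTCC was in 6.5% against 6.3%. Among the 41 windows of genes above the shift, 6 held TGACNNNGC, 2 TGANTCA and 2 GGNNTTTCC. Among the 32 windows of genes below it the numbers were 1, 1 and 0. The median GC content of the windows was 66.3% for chromosome 2 genes with this count minimum and 58.3% for all genes. The 659 windows belong to genes past the count minimum, and the set of all windows has no such minimum. No like set from other chromosomes was compared, so these percentages are not read as traits of chromosome 2. A match is a description of the letters and not of binding.

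No feature of the table was named LOC401312. RefSeq places it at chr7:22649960-22665533 (GRCh38.p14), which overlaps the STEAP1B feature. STEAP1B held 9, 11 and 23 raw counts with empty vector, against 94628, 92527 and 90297 for LOC401312 replicates 1, 2 and 3, so all 3 stood far above vector whatever their genotype field reads. Depth ran from 60971105 to 73994619 counts per library. The A549 and epithelial markers were all detected in every library, at a sum of 18056 to 19735 CPM (counts scaled to a common library size). Several libraries stood apart. Vector replicate 1 held blood and fibroblast transcripts: its haematopoietic markers summed to 28.5 CPM against 1.11 to 2.10 in the other libraries, with 653 counts of HBB and 256 of PTPRC. LOC401312 replicates 2 and 3 held placental transcripts, at 111 and 97.1 CPM against 1.28 to 2.28 elsewhere. The 10 urothelial markers summed to 11.6 to 13.7 CPM in the vector libraries and 3.01 to 4.04 in the LOC401312 libraries. The 5 fibroblast markers summed to 36.2 to 48.3 against 21.2 to 22.5, so both sums differed between the groups. Single markers did not all follow. KRT13, KRT5, PSCA, ADIRF and CDKN2A were lower in every LOC401312 library than in any vector library, but UPK1A, UPK1B, UPK2 and KRT20 overlapped. COL1A1 and COL1A2 were lower in every LOC401312 library, but PDGFRB was higher. DCN and LUM were highest in vector replicate 1 and lowest in vector replicates 2 and 3. The part of these 2 lists in the results was not tested. Results are given below also without vector replicate 1 and without LOC401312 replicates 2 and 3.

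The median chromosome 2 gene was 0.851-fold of its vector level in the LOC401312 libraries, a log2 change of -0.23. Of the 788 genes, 706 (89.6%) had a change below 0. The edgeR quasi-likelihood test across all 19620 features tested, at an adjusted p of 0.05, called 341 of them lower (43.3%), while it called 4.58% of all features lower. It called 12 higher (1.52%), against 4.13% of all features, and 435 were not called. Every LOC401312 library lay below every vector library for 529 genes (67.1%; 13.9% of all features) and above for 28 (3.55%; 14.0% of all features). These counts used the contrast for which the chromosome was chosen, and nothing is read from their distance to the background.

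The shift appeared in each library. Relative to the mean of the vector libraries, the median deviation of the 788 genes was 0.01, -0.0016 and -0.0068 on the log2 scale in vector replicates 1 to 3 and -0.24, -0.23 and -0.23 in LOC401312 replicates 1 to 3. No LOC401312 library came near a vector library. Over the 11145 genes of other chromosomes the same medians were 0.01, 0.0091 and 0.0067 in the LOC401312 libraries. Summed over the 788 genes, RNA came to 59569, 59840 and 59377 CPM in the vector libraries and to 51044, 51214 and 51074 CPM in the LOC401312 libraries, or 59595 ± 233 against 51111 ± 91.0 CPM (SD, n = 3 each), a ratio of 0.858. The median change was -0.22 without vector replicate 1 and, in a separate fit, -0.24 without LOC401312 replicates 2 and 3. These 3 libraries were not left out together, and the vector libraries that remain in either fit keep the higher sum of the urothelial list. With 1 LOC401312 library left, edgeR called 27 genes lower and 4 higher.

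Chromosomes 12 and 9 are set beside it for scale. Genes of chromosome 12 (647 with the same minimum) had a median log2 change of 0.12, with 110 called higher (17.0%) and 8 lower (1.24%). Genes of chromosome 9 (497) had a median of -0.09, with 68 called lower (13.7%) and 12 higher (2.41%). Of all features, 4.58% were called lower and 4.13% higher. Chromosome 2, which was chosen because its genes ran low, moved farther from 0 than either in every LOC401312 library.

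**Figure D1:**
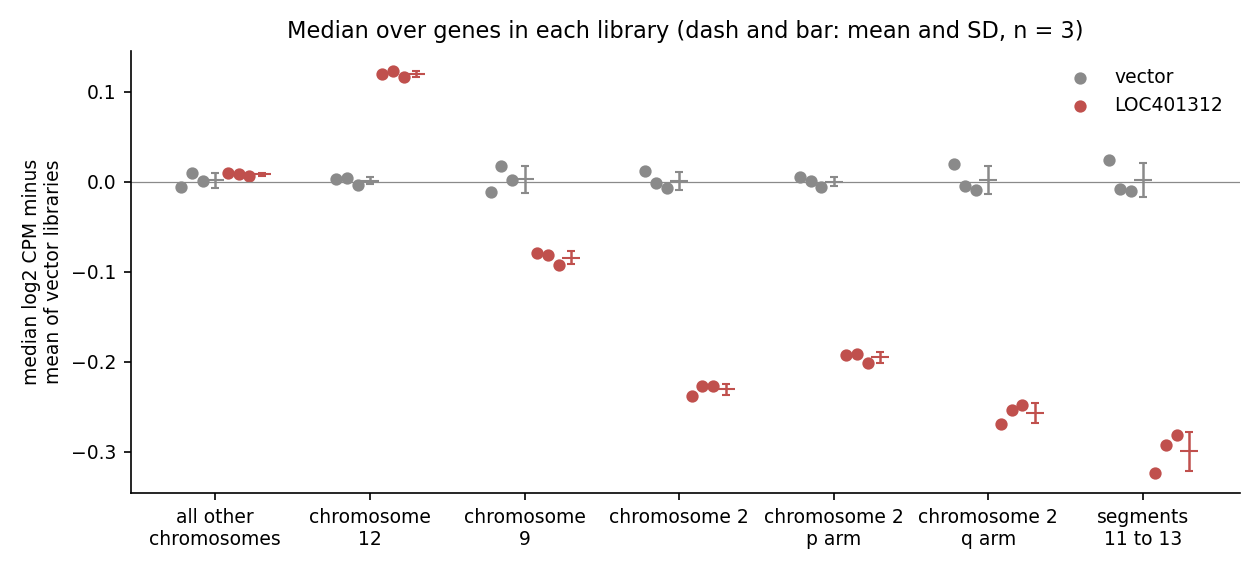
Median over genes of log2 CPM minus the mean of the vector libraries (y axis, log2), for sets of genes with a mean of at least 250 counts (x axis); points are libraries, and dashes with bars are means and SD (n = 3). The LOC401312 libraries sit at -0.24, -0.23 and -0.23 for chromosome 2 and near 0 for all other chromosomes.

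The distribution of changes was displaced more than it was widened. The middle 50% of chromosome 2 genes lay between -0.33 and -0.13, an interquartile range of 0.20, and that of other chromosomes was 0.19. Of the 788 genes, 603 (76.5%) lay within 0.2 of the shift, and 78.5% of the genes of other chromosomes lay within 0.2 of 0. From the 5th to the 95th percentile the chromosome 2 changes ran from -0.51 to 0.13. Only 2 genes lay beyond -1 and 1 beyond 1. COL3A1, a fibrillar collagen, had the lowest value of -1.76, and its CPM was 20.9, 3.23 and 7.82 in the vector libraries and 1.86, 3.68 and 3.94 in the LOC401312 libraries. The groups overlapped, the adjusted p was 0.0804, and its highest value was in vector replicate 1, the library with 347 counts of LUM and 205 of DCN, both fibroblast transcripts. MRPL53, a mitochondrial ribosomal protein, came next at -1.22 (adjusted p = 0.186), with CPM of 6.93, 13.2 and 35.4 against 11.2, 4.32 and 8.21. COL3A1 and MRPL53 are named because of their values and were not called.

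**Figure D2:**
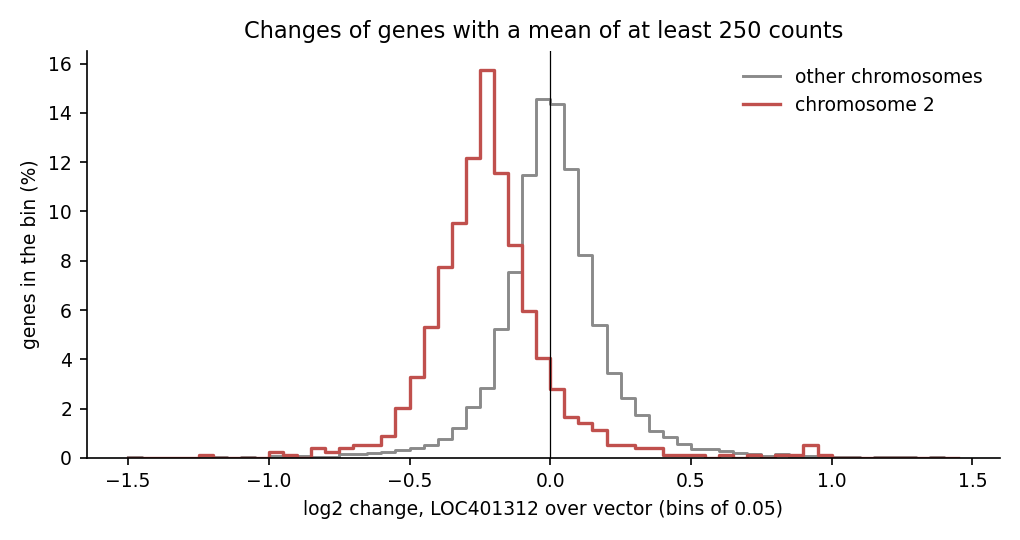
Percent of genes (y axis) by log2 change, LOC401312 over vector, in bins of 0.05 (x axis), for 788 chromosome 2 genes and 11145 genes of other chromosomes; 2 and 14 genes lie outside the plotted range. The chromosome 2 curve has its median at -0.23 and about the same width as the other.

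The size of the shift did not grow with expression, whereas the share of genes called did. By quartile of mean count (197 genes each, split over all libraries) the median log2 change was -0.19, -0.25, -0.24 and -0.22 from the lowest to the highest. The share called lower was 13.2%, 37.6%, 57.4% and 65.0%, against 4.58% of all features. The lowest quartile held means of 252 to 922 counts and had an interquartile range of 0.36, against 0.15 in the highest, which began at 4934 counts. In the highest quartile, every LOC401312 library was below every vector library for 84.3% of genes, against 13.9% of all features. Features of other chromosomes were not split by count, so the rise in calls is not read as a trait of chromosome 2. Strand made little difference, with medians of -0.23 on both. The 336 genes that overlap another tested feature had a median of -0.23, and so had the 452 that do not.

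The count minimum kept 788 features and its edge is given once. Just inside stood AC026273 and KCNK3, a potassium channel, both at a mean of 251.8 counts, with log2 changes of 0.03 and -0.26. Just outside stood AC097448 at 249.3 counts and -0.28, and the pseudogene MXRA7P1 at 243.2 counts and -0.45. The minimum is on the mean of both groups, and 10 of the 788 had a vector mean under 250 counts and 8 a LOC401312 mean under it. A gene that passed through 1 group only had to differ between the groups. Such genes were 2 of the 12 called higher, 3 of the 341 called lower, 3 of the 52 that stood above the shift (SULT1C2, COL6A3 and TRIB2) and 1 of the 37 below it (CD302).

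Both arms were shifted, the q arm slightly farther. The p arm (327 genes, the last starting at 91617160) had a median log2 change of -0.20, or 0.869-fold, with 124 genes called lower (37.9%) and 2 higher. The q arm (461 genes, the first starting at 94195806) had -0.25, or 0.840-fold, with 217 lower (47.1%) and 10 higher. In LOC401312 replicates 1 to 3 the p arm median was -0.19, -0.19 and -0.20 and the q arm median -0.27, -0.25 and -0.25, so the arms did not overlap. The p arm minus the q arm was 0.077, 0.062 and 0.047 in these libraries, and -0.014, 0.0055 and 0.0033 in the vector libraries. The difference of 0.048 between the arm medians of the fitted changes is small beside the spread of genes within an arm (interquartile ranges of 0.18 and 0.21).

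Every stretch of the chromosome showed the shift. Chromosome 2 was cut into 25 segments of 10 Mb by the start of each gene, with 8 to 64 genes in each. The median change was below 0 in 25 of 25 segments, and in 25 of 25 every LOC401312 library lay below every vector library. Segment medians ran from -0.35 to -0.14, while the library values ran from -0.06 to 0.07 in the vector group and from -0.40 to -0.08 in the LOC401312 group. On other chromosomes 116 of 277 segments with at least 5 genes were below 0. Of those 277, 1 lay below the highest chromosome 2 segment: 40 to 50 Mb of chromosome 9, with 5 genes, at -0.28. The next lowest was at -0.12. Because the chromosome was chosen for its low genes, this ranking against other chromosomes is a description, and nothing is read from it.

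By the median of the fitted changes, the weakest segment was 30 to 40 Mb on the p arm (41 genes), at -0.14. Its LOC401312 libraries were at -0.16, -0.13 and -0.15. It held 10 genes called lower and 6 above the shift. Segment 0 to 10 Mb (23 genes) followed at -0.15, with 10 genes called lower and 0 above the shift. Segment 80 to 90 Mb (33 genes) was similar at -0.16, with 7 genes called lower and 6 above the shift. By the mean of the LOC401312 library medians it was the weakest, at -0.12 against -0.14 for 30 to 40 Mb. The shift is that of the whole chromosome, so a segment's own median enters the counts above it by construction. Segment 220 to 230 Mb on the q arm (21 genes) also had a median of -0.16, but its LOC401312 libraries spread from -0.23 to -0.08. Its upper quartile was 0.11, the only positive upper quartile of the 25 segments.

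The 5 segments with the lowest medians all lay on the q arm. Segment 100 to 110 Mb (30 genes) had the lowest, -0.35, with LOC401312 libraries at -0.40, -0.33 and -0.25. Without LOC401312 replicate 1 the lowest median of any segment was -0.31, and which segment held it is not given here. Next came 110 to 120 Mb (37 genes) at -0.29. Segments 230 to 240 Mb (42 genes), 210 to 220 Mb (48 genes) and 120 to 130 Mb (19 genes) followed, each at -0.28. In segment 120 to 130 Mb 15 of 19 genes were called lower (78.9%). Taken as a run, which was picked after its values were seen, 100 to 130 Mb held 86 genes with a median of -0.32, or 0.802-fold, and 51 called lower (59.3%). Its library medians were -0.32, -0.29 and -0.28 against -0.22, -0.22 and -0.22 for the rest of the chromosome. Outside the run, the q arm had a median of -0.24 and stayed below the p arm by 0.058, 0.047 and 0.030 in LOC401312 replicates 1 to 3. The pooled SD of a segment value within a group was 0.033. Segments 30 to 40 Mb and 110 to 120 Mb did not overlap in their LOC401312 libraries, whereas segments 110 to 120 Mb and 120 to 130 Mb did.

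**Figure D3:**
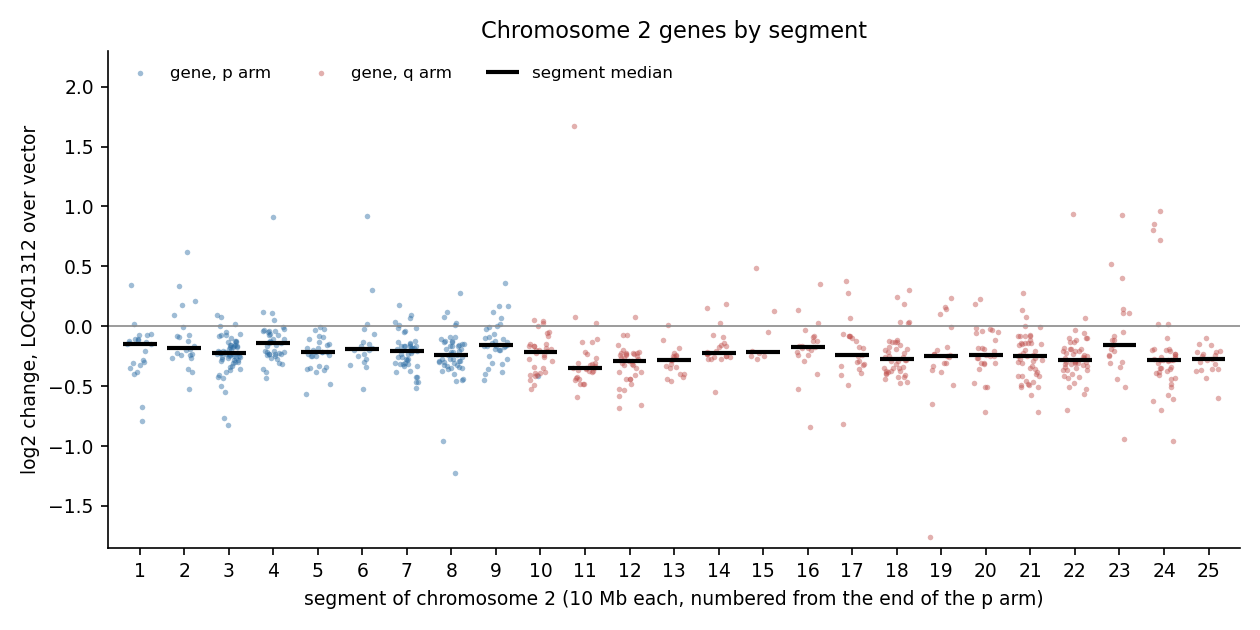
Log2 change, LOC401312 over vector (y axis), of each of the 788 genes by 10 Mb segment numbered from the p arm end (x axis); black lines are segment medians. All 25 medians lie below 0, from -0.35 (segment 11) to -0.14 (segment 4).

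Coding and other genes had like medians, and their difference was within the spread of the libraries. The 742 protein-coding genes had a median log2 change of -0.23, and so had the 46 other genes. In LOC401312 replicates 1 to 3 the coding minus the other median was -0.011, -0.038 and -0.016, and in the vector libraries 0.012, 0.023 and -0.022, so the groups overlapped. Of the coding genes 335 were called lower (45.1%) and 12 higher. Of the others 6 were called lower (13%) and 0 higher. The sign of the difference changed without vector replicate 2 (0.056) and without LOC401312 replicate 2 (0.0089). Among the other types, 20 long non-coding RNAs had a median of -0.31 and 13 processed pseudogenes a median of -0.15.

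Named after their values were seen, CYTOR and MIR4435-2HG are near-identical long non-coding RNAs whose counts may share reads. Both were called lower, at -0.45 (adjusted p = 0.0083) and -0.32 (adjusted p = 0.026). RPLP0P6 and VDAC2P5, processed copies of the ribosomal protein gene RPLP0 and the channel gene VDAC2, were the only non-coding features above the shift, with changes of 0.05 and 0.04 that were not called. The parent genes lie on other chromosomes, and shared reads make both pseudogenes uncertain.

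Departures from the shift were tested by taking each library's chromosome 2 median out of every chromosome 2 gene before the same edgeR fit, so that a change of 0 means moving with the chromosome. In that fit 52 of the 788 genes stood above the shift (6.60%, against 3.94% of all features) and 37 below it (4.70%, against 2.68%). Of the 11145 features of other chromosomes with the same count minimum, 5.46% were called above 0 and 3.94% below. Those features kept the shifts of their own chromosomes. On chromosome 12, 15.5% were called above 0 and 1.24% below, and on chromosome 9, 2.21% above and 11.9% below. The measures are thus not alike, and nothing is read from how near the shares lie. The other 304 of the 341 genes called lower were not called away from the shift. Of the 52 above, 12 were called higher in the plain comparison and 40 were not called in either direction. All 37 below were also called lower. By arm, 28 genes of the p arm were above (8.56%) and 6 below (1.83%), and 24 of the q arm were above (5.21%) and 31 below (6.72%). The same median was taken out of both arms, and the median departure was 0.025 on the p arm and -0.024 on the q arm. The arm difference therefore enters this split by construction, and nothing further is read from it.

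The genes farthest above the shift included enzymes of conjugation, a transporter and matrix proteins. SULT1C2, a cytosolic sulfotransferase that conjugates phenols (chr2:108288639-108309915), had 4.11, 3.98 and 2.91 CPM in vector replicates 1 to 3 and 12, 11.9 and 11.3 CPM in LOC401312 replicates 1 to 3. All 3 LOC401312 libraries were far above the vector libraries. Its vector mean of 240.7 counts is under the minimum, so it is a member only through the LOC401312 libraries, and its ratio of 3.19, a log2 change of 1.67 ± 0.14 (SE) and 1.9 relative to the shift, is a description. It lies in the segment with the lowest median of the chromosome. Its printed window holds 1 match to the NRF2 core, 62 bases before the RefSeq start. That start differs from the start of the counted feature, and the window lies inside the feature.

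UGT1A9 and UGT1A7 encode glucuronosyltransferases that make drugs and other small molecules soluble. UGT1A9 had 10.1, 10.7 and 14.4 CPM in the vector libraries and 21.5, 22.8 and 24.4 CPM in the LOC401312 libraries, a 1.95-fold rise (adjusted p = 0.00144). UGT1A7 went from 13.2, 15.4 and 14.5 to 23.7, 27.3 and 26.8 CPM, a 1.81-fold rise (adjusted p = 0.000345). The UGT1A entries share their last exons, so how the counting split their reads is uncertain, and the 2 rises are not independent. UGT1A1, the bilirubin enzyme of the same locus, had a log2 change of 0.72 that was not called (adjusted p = 0.132).

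XDH, the xanthine dehydrogenase that makes uric acid (chr2:31334321-31414742), had 4.19, 4.13 and 5.07 CPM with vector and 8.18, 8.10 and 8.90 CPM with LOC401312, a 1.88-fold rise (adjusted p = 0.00197). ABCA12, a lipid transporter of the skin barrier (chr2:214931542-215138626), rose 1.91-fold from 7.97, 7.93 and 8.50 to 15.6, 14.5 and 16.6 CPM (adjusted p = 0.000239). In both genes the groups lay far apart.

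EFEMP1, an elastic-fibre glycoprotein (chr2:55865967-55924139), had 24.7, 25.9 and 26.2 CPM in the vector libraries and 47.0, 47.9 and 50.3 CPM in the LOC401312 libraries. The rise was 1.89-fold with a log2 SE of 0.055 (adjusted p = 1.58e-05), the smallest SE among the 12 genes named above the shift. COL6A3, a chain of collagen VI (chr2:237324003-237414207), had 3.69, 2.96 and 3.11 CPM with vector and 5.13, 6.49 and 5.47 CPM with LOC401312, a ratio of 1.75. Its vector mean was 214.0 counts, so it too is a member only through the group where it is high, and no test is given. DNER, a transmembrane Notch-binding protein (chr2:229357629-229714555), rose 1.9-fold from 10.9, 9.55 and 10.5 to 19.9, 18.9 and 20.1 CPM (adjusted p = 0.000163).

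TRIB2, PID1, SGPP2 and SCN9A stood above the shift but were not called against vector itself. TRIB2, a pseudokinase, had 4.16, 2.96 and 4.11 CPM with vector and 6.48, 4.98 and 5.86 with LOC401312, a departure of 0.85. Its vector mean was 246.3 counts, under the minimum, so it is a member only through the LOC401312 libraries and its departure is a description. PID1, an adaptor that dampens insulin signalling, had 3.41, 4.08 and 4.55 against 5.53, 5.79 and 5.89 CPM (departure 0.74, adjusted p = 0.0148). SGPP2, a sphingosine-1-phosphate phosphatase, had 4.46, 4.43 and 4.67 against 5.73, 5.88 and 6.31 CPM (departure 0.63, adjusted p = 0.0133). SCN9A, a voltage-gated sodium channel, had 6.10, 4.75 and 5.77 against 6.24, 7.03 and 8.34 CPM (departure 0.61, adjusted p = 0.0377). All 4 rest on low counts. PID1, SGPP2 and SCN9A lost the call when single libraries were left out. The departure of TRIB2 ran from 0.71 to 0.95 with single libraries left out, again as a description. For PID1 the adjusted p became 0.0528 without vector replicate 2, and 0.0544, 0.0715 and 0.0688 without LOC401312 replicates 1, 2 and 3. For SGPP2 it became 0.0509 and 0.0556 without vector replicates 2 and 3, and 0.0624 and 0.0702 without LOC401312 replicates 2 and 3. For SCN9A it became 0.118 and 0.108 without vector replicates 2 and 3, and 0.0528, 0.114 and 0.151 without LOC401312 replicates 1, 2 and 3.

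Other genes called higher rose by little. COL5A2, a chain of collagen V, rose 1.18-fold from 335, 341 and 333 to 399, 381 and 408 CPM (adjusted p = 0.00426). SERPINE2, a secreted protease inhibitor, rose 1.10-fold from 245, 245 and 235 to 262, 273 and 266 CPM (adjusted p = 0.0447). MAP2, a microtubule-associated protein, rose 1.22-fold (adjusted p = 0.0224) and is named after its values were seen.

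The genes farthest below the shift included regulators of differentiation, secreted and basement membrane proteins and a chaperonin. CYP26B1, which breaks down retinoic acid (chr2:72129238-72148038), had 15.7, 17.7 and 16.5 CPM in the vector libraries and 8.95, 8.66 and 8.01 CPM in the LOC401312 libraries. It fell to 0.514-fold (log2 change -0.96 ± 0.091 SE, adjusted p = 0.000203) and lay at -0.73 relative to the shift. TWIST2, a helix-loop-helix repressor (chr2:238848032-238910534), fell to 0.515-fold from 9.80, 10.5 and 9.71 to 5.09, 5.57 and 4.79 CPM (adjusted p = 0.000677). ID2, an inhibitor of helix-loop-helix factors (chr2:8678845-8684453), fell to 0.577-fold from 12.4, 13.8 and 12.7 to 6.83, 7.58 and 8.01 CPM (adjusted p = 0.00112). ID2 overlaps the antisense feature ID2-AS1, and no strand setting of the counting is given in the sources used here.

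COL4A4, a basement membrane collagen chain (chr2:227002714-227164453), fell to 0.520-fold from 7.33, 7.38 and 7.30 to 3.93, 3.87 and 3.64 CPM (adjusted p = 0.000997). PXDN, a peroxidase that cross-links collagen IV (chr2:1631887-1744852), fell to 0.628-fold from 38.1, 40.1 and 37.0 to 24.1, 23.9 and 24.4 CPM (adjusted p = 0.00012). IGFBP2, a secreted binding protein of insulin-like growth factors (chr2:216632828-216664436), fell to 0.617-fold from 45.7, 52.4 and 49.8 to 30.6, 30.1 and 30.6 CPM (adjusted p = 0.000116). The groups did not overlap in any of these genes, and the LOC401312 libraries were close together.

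KHK, the fructose kinase (chr2:27086747-27100762), fell to 0.588-fold from 19.5, 20.6 and 22 to 12, 11.3 and 13.2 CPM (adjusted p = 0.000704). It overlaps CGREF1 on the other strand, which had a log2 change of -0.82 (adjusted p = 0.0107), so reads of the pair may be shared. NUP35, a nucleoporin, fell to 0.639-fold (adjusted p = 0.000554) from 27.8, 30.0 and 27.6 to 19.2, 17.7 and 17.6 CPM. NGEF, a guanine nucleotide exchange factor, and METTL21A, a lysine methyltransferase of chaperones, fell to 0.615-fold and 0.609-fold (adjusted p = 0.00149 and 0.00403). CD302, a C-type lectin receptor, had a ratio of 0.558, given as a description because its LOC401312 mean of 219.0 counts is under the minimum and it is a member only through the vector libraries. METTL21A had 14.9, 17.8 and 14.7 CPM with vector and 8.44, 10.0 and 10.4 CPM with LOC401312. The departure of CD302 ran from -0.64 to -0.59 with single libraries left out. The called departures of NGEF and METTL21A depended on single libraries. Leaving out any 1 of vector replicates 2 and 3 and LOC401312 replicates 1, 2 and 3 ended the call of METTL21A (adjusted p of 0.102, 0.0754, 0.105, 0.0877 and 0.0629, in that order). For NGEF, leaving out vector replicates 2 or 3 or LOC401312 replicates 2 or 3 did so (0.0535, 0.0717, 0.0770 and 0.0588).

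HSPE1 and HSPD1 encode the mitochondrial co-chaperonin and chaperonin that fold proteins together, and their transcription starts share the printed window. HSPE1 (chr2:197500140-197503382) had 234, 285 and 285 CPM in the vector libraries and 166, 169 and 155 CPM in the LOC401312 libraries, a fall to 0.609-fold (adjusted p = 0.000304) that lay -0.49 from the shift (adjusted p = 0.0043). HSPD1 (chr2:197486584-197500274) had 1198, 1209 and 1193 CPM against 1005, 1012 and 1011 CPM, a fall to 0.841-fold (adjusted p = 0.000754) that lay -0.02 from the shift (adjusted p = 0.743). HSPE1 thus stood below the shift, and HSPD1 was not called away from it. The counted features overlap at their starts on opposite strands, and the strand setting is not given, so reads of the pair may be shared. The direct difference between the neighbours was not tested.

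**Figure D4:**
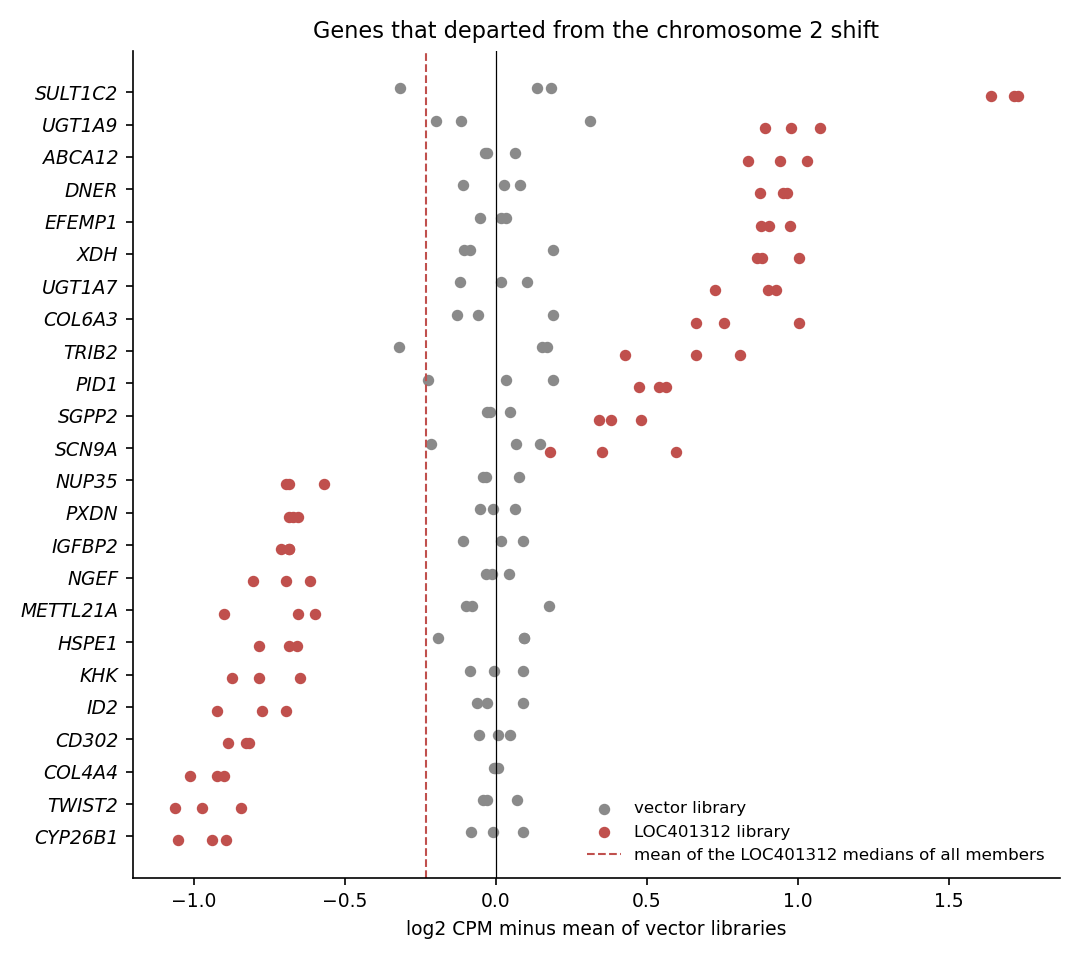
Log2 CPM minus the mean of the vector libraries (x axis) for the 12 genes farthest above and the 12 farthest below the chromosome 2 shift (y axis); points are libraries, and the dashed line is the mean LOC401312 median of all 788 genes, at -0.23. In the genes above the shift the LOC401312 libraries lie right of the vector libraries, and in the genes below the shift they lie left of the dashed line.

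Without LOC401312 replicates 2 and 3, which hold placental transcripts, 6 genes stood above the shift and 1 below, with 1 LOC401312 library left. In that fit the 12 genes named above had departures from 0.41 for SCN9A to 1.94 for SULT1C2, and not all kept the call. The 12 named below were not called, although their values stayed between -0.33 and -0.74 from the shift. The number of all tested features called lower dropped at the same time from 899 to 91. Without vector replicate 1, which holds blood and fibroblast transcripts, 64 genes stood above and 48 below. Leaving out any other single library lowered both counts: without vector replicates 2 and 3 in turn 32 and 30 stood above and 24 and 19 below, and without LOC401312 replicates 1, 2 and 3 in turn 30, 28 and 31 stood above and 22, 18 and 22 below.

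The 5 genes with the highest levels per length were not called away from the shift. TMSB10, an actin-sequestering peptide, had a mean of 1793 FPKM (fragments normalised for transcript length and sequencing depth) in the vector libraries, and its change of -0.16 was not called (adjusted p = 0.119). YWHAQ, a 14-3-3 adaptor, had 256 FPKM and fell to 0.903-fold (adjusted p = 0.0318). HSPD1 had 233 FPKM and PTMA, an acidic nuclear protein, 232 FPKM. PTMA fell to 0.867-fold (adjusted p = 0.00474). PCBP1, an RNA-binding protein, had 170 FPKM and fell to 0.801-fold (adjusted p = 0.000814).

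The genes were then read by function, in 15 lists of chromosome 2 genes. The lists were chosen with earlier results known, and their counts are set beside the 43.3% called lower and 1.52% called higher among all 788. In translation, 11 of 13 genes were called lower and 0 higher, with a median log2 change of -0.29. NCL, the nucleolar protein nucleolin, fell to 0.787-fold from 1186, 1235 and 1199 to 941, 974 and 933 CPM (adjusted p = 0.000228). The ribosomal protein genes RPS7 and RPS27A fell to 0.798-fold and 0.844-fold (adjusted p = 0.000864 and 0.0273). ARPC2, an actin nucleator that is no translation factor, is among the 11. Of chaperones and proteasome subunits 8 of 14 were called lower and 0 higher, with a median of -0.20. The chaperonin subunit CCT4 fell to 0.803-fold (adjusted p = 0.00136), and CCT7, which stood below the shift, to 0.757-fold from 580, 632 and 626 to 462, 469 and 461 CPM (adjusted p = 0.000295).

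Mitochondrial energy genes were called lower in 18 of 24 cases and higher in 0, with a median of -0.24. IDH1, the cytosolic isocitrate dehydrogenase, had 380, 384 and 381 CPM with vector and 287, 293 and 280 CPM with LOC401312, a fall to 0.751-fold (adjusted p = 0.000114) that also stood below the shift. HADHA, of fatty acid oxidation, fell to 0.871-fold (adjusted p = 0.0116), and NDUFB3, a subunit of respiratory complex I, to 0.713-fold (adjusted p = 0.0115). In splicing and RNA binding 14 of 23 were called lower and 0 higher, with a median of -0.22. HNRNPA3, which binds pre-mRNA, fell to 0.736-fold (adjusted p = 9.09e-05) and stood below the shift. SF3B6, a subunit of the branch-site complex, fell to 0.741-fold (adjusted p = 0.000851) and the helicase DDX1 to 0.877-fold (adjusted p = 0.0319).

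In DNA replication, repair and nucleotide synthesis 18 of 27 genes were called lower and 0 higher, with a median of -0.28 and 4 below the shift. XRCC5, the Ku80 subunit that holds broken DNA ends, had 429, 419 and 407 CPM in the vector libraries and 320, 327 and 328 CPM in the LOC401312 libraries, a fall to 0.777-fold (adjusted p = 0.000274). ATIC, of purine synthesis, fell to 0.743-fold (adjusted p = 0.000145), and both XRCC5 and ATIC stood below the shift. MCM6, a subunit of the replicative helicase, fell to 0.826-fold (adjusted p = 0.0025) and was not called away from the shift. For mitosis and kinetochore 14 of 21 were called lower and 0 higher, with a median of -0.27. The tubulin TUBA4A fell to 0.814-fold (adjusted p = 0.0153), the dynactin subunit DCTN1 to 0.861-fold (adjusted p = 0.0287), and MZT2B, of the gamma-tubulin ring, had -0.22 and was not called (adjusted p = 0.365).

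Membrane traffic genes were called lower in 10 of 20 cases and higher in 0, with a median of -0.22. The small GTPases RAB10 and RAB1A fell to 0.835-fold and 0.880-fold (adjusted p = 0.00149 and 0.0186), while RTN4, which shapes the endoplasmic reticulum, had -0.06 (adjusted p = 0.502). Solute carriers had 5 of 13 lower, 0 higher and a median of -0.24. SLC5A6, a vitamin transporter, fell to 0.781-fold (adjusted p = 0.000929), and SLC35F6 to 0.868-fold (adjusted p = 0.0432). SLC20A1, a phosphate transporter, had -0.07 (adjusted p = 0.327) and stood above the shift. Apoptosis genes had 5 of 9 lower, 0 higher and a median of -0.19: CASP8, the initiator caspase, fell to 0.849-fold (adjusted p = 0.0337), TMBIM1 to 0.879-fold (adjusted p = 0.0295), and PDCL3 to 0.717-fold (adjusted p = 0.00231).

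Of 24 transcription factors 6 were called lower and 0 higher, with a median of -0.19. NFE2L2, the oxidative stress factor NRF2, had 78.1, 75.8 and 75.3 CPM with vector and 58.6, 63.5 and 66.2 CPM with LOC401312, a fall to 0.821-fold (adjusted p = 0.00884) that was not called away from the shift. EPAS1, the hypoxia factor HIF-2 alpha, had -0.13 and was not called (adjusted p = 0.0861). Of 7 interleukin and immune genes 2 were called lower and 0 higher, with a median of -0.10. IL1R1, the interleukin-1 receptor, fell to 0.770-fold (adjusted p = 0.0008), and STAT4 had -0.18 (adjusted p = 0.219). Of 20 signalling genes 7 were called lower and 1 higher, with a median of -0.20. The small GTPases RHOB and RND3 had -0.18 and 0.03 and were not called against vector (adjusted p = 0.226 and 0.83), and RND3 stood above the shift. The 10 HOXD genes had 0 above the count minimum and are not described.

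Matrix genes and genes of detoxification and lipids are given last. Of 14 matrix and adhesion genes 4 were called lower and 3 higher, with a median of -0.11, 4 above the shift and 1 below. FN1, fibronectin, had 1467, 1461 and 1395 CPM in the vector libraries and 1190, 1075 and 1096 CPM in the LOC401312 libraries, a fall to 0.777-fold (adjusted p = 0.000793). SDC1, a cell-surface proteoglycan, had -0.22 and was not called (adjusted p = 0.0529). The sum of the fibroblast markers differed between the groups, as given above, though not every marker followed it. Their part in the matrix list was not tested. Of 21 detoxification, sterol and lipid genes 3 were called lower and 4 higher, with a median of -0.05, 7 above the shift and 1 below. CYP1B1, which oxidises hydrocarbons and steroids, had 146, 144 and 139 CPM with vector and 153, 150 and 163 CPM with LOC401312. Its change of 0.12 was not called (adjusted p = 0.143), and it stood above the shift by 0.35 (adjusted p = 0.00132). ACSL3, a fatty acid activating enzyme, fell to 0.848-fold (adjusted p = 0.0105), and GALNT14, a glycosyltransferase, had -0.04 (adjusted p = 0.764). Whether these lists differ from the rest of the chromosome was not tested.

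**Figure D5:**
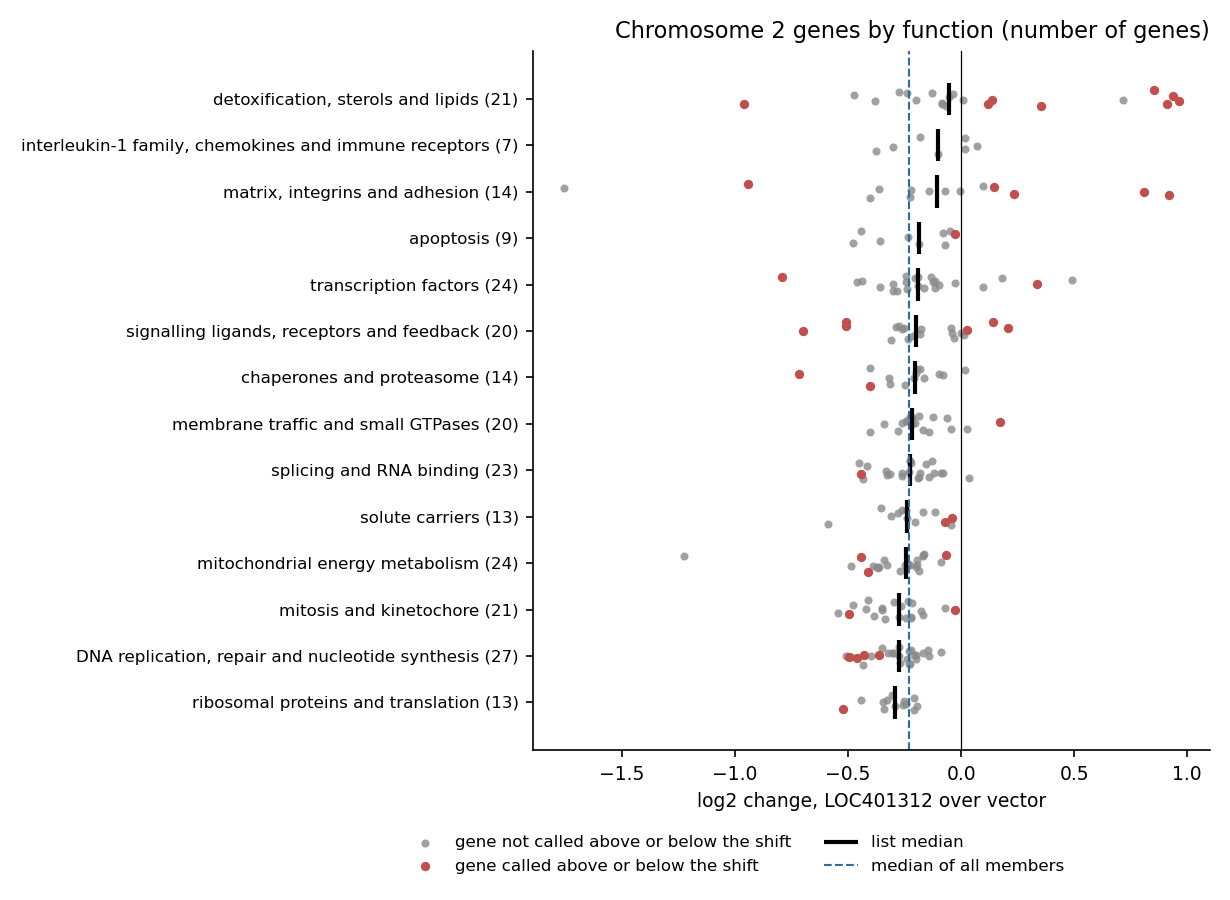
Log2 change, LOC401312 over vector (x axis), of chromosome 2 genes by functional list (y axis, number of genes in brackets); red points were called above or below the shift, black bars are list medians, and the dashed line is the median of all 788 genes. List medians run from -0.29 for translation to -0.05 for detoxification, sterols and lipids.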

How the data were processed

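Total RNA of 6 A549 libraries was sequenced. The authors deposited raw counts per gene and FPKM, both named as such per the file headers. The submitters' processing notes name cutadapt 1.9, FastQC and build GRCh38. Not given in the sources used here are the aligner, counter, annotation release, strand setting and how the FPKM totals were defined. Counts were fitted in R 4.3.3 with edgeR 4.0.16 (TMM, filterByExpr, quasi-likelihood test, group as the only term, Benjamini-Hochberg over 19620 features, threshold 0.05). SE is the log2 change divided by the root of F. CPM uses TMM library sizes. For departures, each library's median chromosome 2 deviation was added to the offset of every chromosome 2 feature. Arms were split at 94 Mb, between the last p arm and first q arm gene. A gene with protein_coding among its transcript types is coding. The fits were checked on simulated data. Genes were named by rule: 12 departures on each side with groups that do not overlap, the 3 of each list and 5 overall with the highest mean FPKM, and 2 on each side of the count minimum. Some genes that the rule or a count covers are not reported here. Members, lists and this rule were chosen with earlier results of these data known. Alternatives used DESeq2 1.42.0, limma 3.58.1 on log2(FPKM + 0.1) and log2(FPKM + 1), other scalings, filters, thresholds and segment lengths, and leaving out libraries. Depth of 60971105 to 73994619 counts covers counting error only.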

Additional observations from a re-analysis of the deposited data

How the results depend on the processing

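The median change of the 788 genes stayed below 0 under every alternative run, and all 25 segments did so in the fit reported above. It was -0.21 with total-count scaling, -0.22 without a filter on low counts, and -0.10 and -0.081 with limma on log2(FPKM + 0.1) and log2(FPKM + 1). On these FPKM scales the median of other chromosomes moved to 0.13 and 0.11, so that the members lay -0.23 and -0.19 from it, against -0.24 in the main comparison. With them 101 and 98 genes were called lower, the lowest segment was at -0.22 and -0.16, the highest at -0.018 and -0.018, and the p arm minus the q arm was 0.032 with the larger pseudocount. Over all tested features they called 308 and 305 lower and 1639 and 1625 higher, against 899 and 811 in the main comparison. DESeq2 called 20 genes higher, 81 above and 69 below the shift. Over all tested features it called 1296 lower and 1246 higher, so its calls rose beyond chromosome 2 as well. At an adjusted p of 0.01, 193 were lower, 24 above and 17 below. Without genes that overlap another feature, 188 were lower, 30 above and 22 below, and the highest segment was at -0.086. Leaving out 1 library at a time called 439 to 1042 of all tested features lower. Among the 788 genes it gave 197 to 315 lower, 28 to 64 above, 18 to 48 below, a median of -0.24 to -0.22, an arm difference of 0.041 to 0.064, a lowest segment of -0.39 to -0.31, and a coding minus other difference of -0.030 to 0.056. That difference was also -0.043 and 0.083 at minimums of 100 and 1000 counts, so its sign is not settled. Without LOC401312 replicates 2 and 3, an alternative chosen after seeing the data, 27 genes were lower, 4 higher, 6 above and 1 below, the arm difference was 0.072 and the segments ran from -0.40 to -0.089. Fewer libraries and fewer genes account for part of the lower counts by construction. The cause of the other changes was not tested. With the replicate block, 32 genes stood above and 20 below the shift. Replicate numbers are shared by name only: same-numbered libraries had deviation correlations of -0.18, -0.0098 and -0.080, so the numbers do not pair them.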
